A study of Mus musculus with 30 samples.

Results

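The Myc family and its partner genes were examined in the H3K27ac peak lists of 2 mouse lung adenocarcinoma cell lines. The 8 genes were chosen by name, out of 55450 genes in the GENCODE annotation. They are the proto-oncogenes Myc, Mycn and Mycl, their partner Max, the Max-binding repressors Mxd1, Mxi1 and Mnt, and Pvt1, a long non-coding RNA gene beside Myc. Myc proteins are transcription factors that bind DNA as a heterodimer with Max, most strongly at the E-box CACGTG, and drive genes of growth, ribosome synthesis and metabolism. Mxd1, Mxi1 and Mnt pair with Max instead, bind the same sites and recruit the Sin3 corepressors. In many tumors Myc is driven by enhancers that lie far from the gene, several of them inside Pvt1.

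In GRCm38 (mm10), Myc lies at chr15:61985391-61990374 on the plus strand and Pvt1 downstream of it at chr15:62037986-62378096, also on the plus strand. Mycn (chr12:12936093-12941914) and Max (chr12:76937269-76962201) lie on the minus strand, and Mycl (chr4:122995652-123002485) on the plus strand. Of the repressors, Mxd1 lies at chr6:86647042-86669161 on the minus strand, Mxi1 at chr19:53310518-53375810 and Mnt at chr11:74830920-74845725, both on the plus strand.

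CK1750 and Tnm2 cells were cultured in DMSO alone as the control or in 1 µM UNC0638, which blocks the H3K9 methyltransferases G9a and Glp. The methods give a treatment of several days, with the drug renewed midway, for cell culture in general, and no separate time for ChIP. H3K27ac, acetylation of lysine 27 of histone H3, marks active promoters and enhancers. Of 30 samples in the series, 9 were H3K27ac samples in 4 groups, with 3 samples of CK1750 with DMSO and 2 in each of the other groups. Each group is 1 merged peak list. By the labels the CK1750 DMSO samples carry 2 replicate numbers, with 2 sequencing runs of the same replicate, both CK1750 UNC0638 samples carry the same number, and the Tnm2 groups have 2 numbers each. The methods state more biological replicates than these labels show. There is therefore no replicate error for any value here, and no difference between lists was tested. The 2 lines are the only cells compared, so line and any other difference between these cells cannot be told apart. A smaller share of cells carrying the mark cannot be told apart from less of the mark in every cell.

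The lists hold 27367 peaks for CK1750 with DMSO, 24601 for CK1750 with UNC0638, 30641 for Tnm2 with DMSO and 18794 for Tnm2 with UNC0638. Values for the 4 lists are given in this order throughout. Read depth is unknown. A peak has a score of -10 log10 P, and the lists end at a score of 50. A score of exactly 3100 was held by 558, 371, 169 and 10 peaks, and the order of peaks scoring 3100 or more is uncertain. Since scores depend on depth, each peak was described by its percentile, the percent of peaks of its own list with a lower score, with ties counted at the middle. Lung epithelial and adenocarcinoma markers had promoter peaks at 10, 10, 10 and 11 of 12 genes, including Nkx2-1, Foxa1 and Foxa2. Epcam had a peak in no list, and Sftpb in the last list only. Leukocyte markers had promoter peaks at 0 of 4 genes in every list, fibroblast markers at 1 of 4 in every list but the last, where none had a peak, and endothelial markers at 1 of 3 in both Tnm2 lists, which was Pecam1, and at 0 of 3 in both CK1750 lists. The part of other cells in any difference between lists was not tested.

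A peak was assigned to a promoter when it reached to within 2.5 kb of any annotated start of the gene. Of the 8 genes, 6 had a promoter peak in every list, and the same genes did so in each. Mycn and Mycl, the neural and lung family members, had none in any list. Among all 21951 protein-coding genes, 50%, 49.1%, 49.4% and 41.3% had a promoter peak in the 4 lists, 39.2% had one in every list and 46.0% in no list. The promoters of the genes without a peak were not short of CpG dinucleotides relative to other promoters. The 300-base RefSeq promoters of Mycn and Mycl hold 14 and 22 CpG, with a median of 7 over all 32851 RefSeq promoters. Max holds 30, Mnt 32 and Mxd1 39, and the 3 promoters listed for Mxi1 hold 17, 21 and 49.

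RefSeq promoter sequences (GRCm38) were matched for 6 of the 8 genes, and Myc and Pvt1 had no entry. An exact E-box, CACGTG on either strand, stood in the promoters of Mnt and Max. It occurs in 7.15% of all RefSeq promoters. The stretches from 250 bases before to 20 bases after the start are shown for these 2 genes, with the E-box in capitals, and for the 2 genes that had no peak, where none of the motifs searched was present.
Mnt promoter, chr11:74830674-74830943, plus strand: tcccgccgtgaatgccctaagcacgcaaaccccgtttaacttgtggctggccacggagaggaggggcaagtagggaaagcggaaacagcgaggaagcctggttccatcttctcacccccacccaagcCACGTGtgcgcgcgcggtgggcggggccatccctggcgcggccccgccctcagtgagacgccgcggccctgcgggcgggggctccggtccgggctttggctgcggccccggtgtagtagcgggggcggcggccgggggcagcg
Max promoter, chr12:76962229-76962498, minus strand: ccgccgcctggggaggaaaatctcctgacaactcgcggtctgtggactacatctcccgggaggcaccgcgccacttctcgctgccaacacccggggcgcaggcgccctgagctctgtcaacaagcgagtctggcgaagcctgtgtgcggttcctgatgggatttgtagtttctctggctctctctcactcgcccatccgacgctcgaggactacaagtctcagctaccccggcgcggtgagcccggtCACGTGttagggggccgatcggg
Mycn promoter, chr12:12941817-12942086, minus strand: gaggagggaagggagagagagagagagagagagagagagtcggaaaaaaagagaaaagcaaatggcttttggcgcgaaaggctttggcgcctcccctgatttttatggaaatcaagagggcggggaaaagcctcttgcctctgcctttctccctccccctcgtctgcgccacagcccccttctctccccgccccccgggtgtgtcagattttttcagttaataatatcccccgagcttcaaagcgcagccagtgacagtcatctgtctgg
Mycl promoter, chr4:122995681-122995950, plus strand: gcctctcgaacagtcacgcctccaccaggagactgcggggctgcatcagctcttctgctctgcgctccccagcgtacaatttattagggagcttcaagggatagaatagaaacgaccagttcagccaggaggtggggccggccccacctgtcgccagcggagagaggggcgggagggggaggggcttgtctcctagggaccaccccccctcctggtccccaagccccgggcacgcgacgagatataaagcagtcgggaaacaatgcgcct
The Mnt E-box, at chr11:74830801-74830806, lay under a promoter peak in all 4 lists. The Max E-box, at chr12:76962246-76962251, lay under the peak in both CK1750 lists, while the Max peak of both Tnm2 lists ended at 76962190. A forkhead motif, TGTTTAC or its reverse complement, stood in 1 of the 3 promoters listed for Mxi1 and in 3.65% of all promoters. An AP-1 motif (TGANTCA) or a TEAD motif (GGAATG) was in none of the member promoters, and these occur in 7.81% and 14.7% of all promoters.

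Myc had a broad promoter peak in each list, which ranked high in CK1750 and lower in Tnm2 with UNC0638. In CK1750 with DMSO it was 1 peak of 4603 bp, at chr15:61983971-61988573, with a score of 3100, a value held by 558 peaks of that list, and a percentile of 98.79. In CK1750 with UNC0638 the strongest of 3 promoter peaks scored 2767.5, at percentile 97.80. In Tnm2 with DMSO the strongest of 2 scored 1326.51, at percentile 95.32. In Tnm2 with UNC0638 the strongest of 3 scored 402.76, at percentile 87.26. Myc was thus highest in CK1750 and lowest in Tnm2 with UNC0638, where the peak was also narrowest (2168 bp). Among the strongest promoter peaks of protein-coding genes only, Myc stood at percentiles of 96.95, 95.02, 87.74 and 76.43. Taken over all promoter peaks, the covered length was 4603, 5691, 4343 and 3928 bp. The percentile differed by -0.99 points with UNC0638 in CK1750 and by -8.07 points in Tnm2, and the median over all protein-coding genes with a peak in both lists was -2.28 and -9.52 points.

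Mxi1 and Mnt, both repressors that compete with Myc for Max, had promoter peaks in CK1750 within 2 percentile points of that of Myc. Mxi1 had percentiles of 98.79, 97.72, 96.10 and 95.89, the narrowest range of any member with a promoter peak. Its strongest peak lay inside the gene, 3480 bp wide at chr19:53312364-53315843 in CK1750 with DMSO. Mnt had percentiles of 99.94, 97.25, 86.05 and 85.17. With a score of 3190.58, the Mnt peak was placed 16th of 27367 in CK1750 with DMSO. Its order relative to Myc and Mxi1 there is uncertain, since both hold the score of 3100 that 558 peaks of that list share. In Tnm2 the same stretch was covered by weaker peaks, 3 with DMSO and 2 with UNC0638, and Mnt ranked below Myc and Mxi1. A separate peak at a start inside the gene, 7.45 kb from the first, was present in all 4 lists, at percentiles of 79.60, 77.90, 49.94 and 42.76. Between the lines with DMSO, Mnt differed by -13.90 points, and 12.3% of protein-coding genes had a more negative difference. Ranked among the strongest promoter peaks of protein-coding genes only, Mnt stood at percentile 99.85 in CK1750 and 66.04 in Tnm2, a difference of -33.81 points, with 1.81% of genes more negative. Both differences place Mnt above the peaks with a score of 3100. Peaks tied at that score, such as Myc, stood at 98.79 and 96.95 on these scales, also above Mnt in Tnm2. The size of both differences depends on this placing, and other placings were not tried.

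Max, the partner of the Myc proteins and of Mxd1, Mxi1 and Mnt, had a low-ranked promoter peak among the members. So did Mxd1, a repressor linked to differentiation. Max had 1 peak in each list, with scores of 309.96, 232.7, 219.71 and 91.61 and percentiles of 67.11, 57.14, 63.84 and 37.83. Its value in Tnm2 with UNC0638 stood below the other 3. Mxd1 had percentiles of 52.59, 40.09, 43.16 and 39.88, so that CK1750 with DMSO stood above the other lists. That list had only a peak of 524 bp upstream of the start. The other lists had a second promoter peak over the start or just inside the gene. Among the strongest promoter peaks of protein-coding genes only, Max stood at percentiles of 34.70, 27.87, 31.47 and 19.74. Mxd1 stood at 19.39, 13.66, 14.38 and 21.26 on that scale, where Tnm2 with UNC0638 was highest. Pvt1 had percentiles of 87.22, 81.80, 93.56 and 80.85, and it was the only member that ranked higher in Tnm2 than in CK1750 with DMSO.

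**Figure D1:**
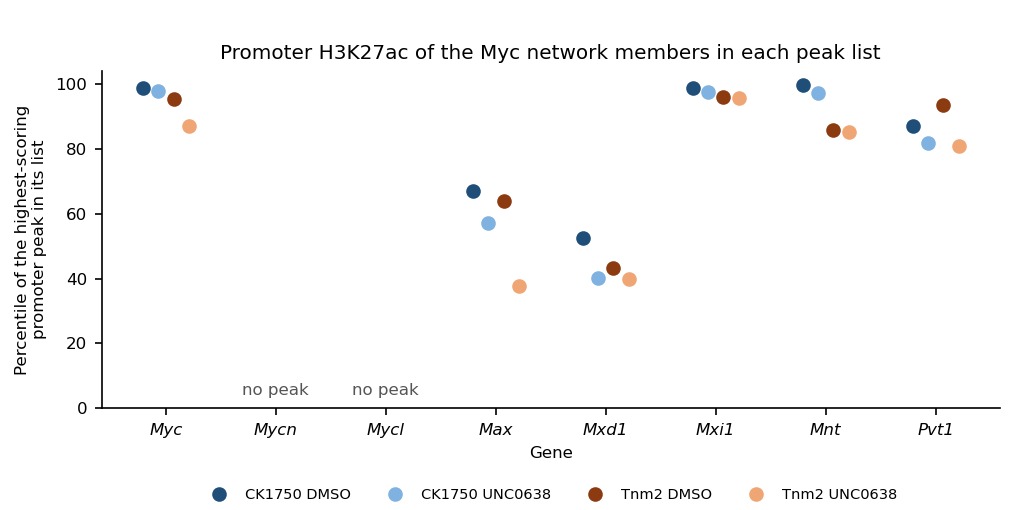
Percentile within its own list (vertical axis, percent of peaks with a lower score) of the highest-scoring promoter peak of each gene (horizontal axis), with 1 point for each of the 4 peak lists and no error bars, since each group is 1 list. Mxi1 stays between 95.89 and 98.79, Mnt is near 100 in CK1750 and near 85 in Tnm2, Max is lowest in Tnm2 with UNC0638, and Mycn and Mycl have no peak.

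All 6 members with promoter peaks ranked lower with UNC0638 in both lines. This is also the common direction, since 66.1% of protein-coding genes in CK1750 and 89.1% in Tnm2 ranked lower. A difference of at least 10 points in that direction was seen in 1 of 6 members in CK1750, which was Mxd1 at -12.50, beside 19.4% of all genes. Max fell just outside it, at -9.97 points. In Tnm2 it was seen in 2 of 6 members, Max at -26.01 and Pvt1 at -12.71, beside 48.5% of all genes. No member ranked at least 10 points higher in either line, beside 6.07% and 1.66% of genes. The median over the 6 members was -4.06 points in CK1750 and -5.67 points in Tnm2. The members thus differed by amounts that many other promoters showed as well. Among the strongest promoter peaks of protein-coding genes only, Mxd1, Mxi1 and Mnt ranked higher with UNC0638 in Tnm2, by 6.88, 2.28 and 6.94 points, so the direction for these 3 genes depends on the scale. On that scale Pvt1, Max and Myc differed by -16.84, -11.73 and -11.31 points in Tnm2. These are 3 of 6 members lower by at least 10 points, beside 35.3% of genes, and 71.4% of genes were lower by any amount and 6.45% higher by at least 10 points. In CK1750 all 6 members were lower on that scale, none by 10 points, beside 53.2% of genes lower at all, 16.5% lower by at least 10 points and 12.6% higher by as much. The Mnt value in CK1750 depends on how peaks with a score of 3100 are ordered.

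Between the lines, 5 of 6 members ranked lower in Tnm2 than in CK1750 with DMSO, beside 51.0% of genes, and Mnt alone by at least 10 points, beside 17.0%. None ranked higher by 10 points, beside 12.9%, and Pvt1 came closest, at 6.34 points. With UNC0638 all 6 ranked lower in Tnm2, beside 74.9% of genes. Of these, Max at -19.32, Mnt at -12.08 and Myc at -10.54 points were lower by at least 10, beside 41.0%, and none was higher by 10, beside 5.35%. The line with the lower rank was thus Tnm2 for every member except Pvt1 with DMSO. Among promoter peaks of protein-coding genes only, the DMSO comparison had 5 of 6 members lower (beside 51.3% of genes), with Mnt past 10 points (beside 21.7%) and Pvt1 higher by 13.72 points (beside 18.7%). The UNC0638 comparison had 4 of 6 lower (beside 63.7%), Myc and Mnt past 10 points (beside 36.4%) and none higher by 10 (beside 13.0%).

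The 3 protein-coding genes whose 4 promoter percentiles were closest to those of Myc were Gab2, an adaptor of receptor tyrosine kinase signaling, Rnf13 and Trim59. Their largest difference from Myc in any list was 0.57, 1.09 and 1.24 points, out of 8614 genes compared over 4 lists. Gab2 stood at percentiles of 98.79, 97.69, 95.24 and 87.83. In CK1750 with DMSO, Gab2 and Trim59 share the score of 3100 with Myc.

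Distal peaks, those that overlap no window of 2.5 kb around a start of any gene, were counted within 100 kb of each gene. Pvt1 had 22, 21, 28 and 16, more than any other member in every list. The window of Pvt1, a gene of 340 kb, includes Myc, so the peaks near Myc are counted for both genes. It is also longer than that of Mxd1, a gene of 22.1 kb, and the counts were not scaled to window length. Mxd1 had 7, 10, 13 and 8 distal peaks and Mxi1 had 9, 7, 8 and 5. The median over protein-coding genes was 1, 0, 1 and 0. Among those genes, Mxd1 stood at percentiles of 95.04, 98.35, 98.39 and 98.44, and Mxi1 at 97.39, 95.71, 94.31 and 94.45. Myc itself had 4, 3, 5 and 2, the strongest of which reached only percentile 61.02, in Tnm2 with DMSO. Max had 2, 1, 2 and 1, and Mnt had none in CK1750 with DMSO and 1 in each other list. Mycl had 1 in every list and Mycn had 0. No peak of any kind lay within 100 kb of Mycn. Over the joined windows of the 8 genes there were 41, 41, 53 and 32 distal peaks, of 12619, 10933, 15293 and 7872 in the whole lists. When every list was held to its 18794 highest-scoring peaks, the counts were 21, 31, 29 and 32, more with UNC0638 than with DMSO in both lines. The same direction held for all distal peaks at that length, which numbered 6877, 7091, 7489 and 7872.

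**Figure D2:**
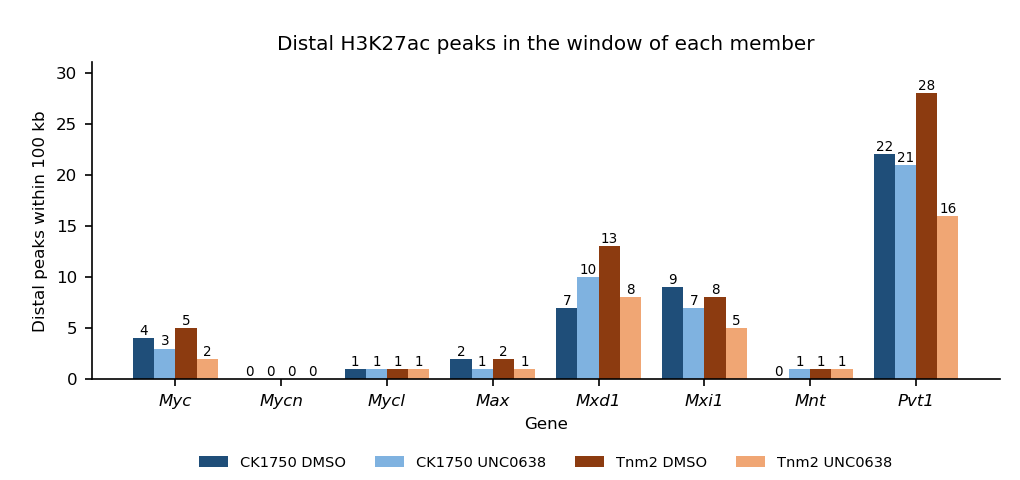
Number of distal H3K27ac peaks (vertical axis) within 100 kb of each gene (horizontal axis) in the 4 peak lists, with the count over each bar and no error bars. Pvt1, the longest of these genes, has the most in every list, Mxd1 and Mxi1 follow, and Mycn has none.

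The single distal peak of Mycl lay at -40 kb, in an intron of Mfsd2a, a lipid transporter gene, at chr4:122954553-122956305 in the joined lists. It scored 792.14, 536.92, 295.62 and 211.06, at percentiles of 84.18, 76.23, 71.22 and 70.97. Distances are given from the annotated start of the gene in its direction of transcription, with a minus sign upstream. The region at -40 kb of Mycl lay 4.56 kb from the nearest annotated start, which is not that of Mycl. The Mycl promoter itself had no peak in any list. The distal peak of Max, at -98.5 kb between genes, was present in all 4 lists at percentiles of 59.31, 35.18, 84.80 and 41.64, lower with UNC0638 in both lines.

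Far from the promoter, the surroundings of Myc were crowded. Within 500 kb on each side there were 34, 33, 41 and 23 distal peaks, against a median of 6, 5, 7 and 3 for windows of that size around protein-coding genes. These counts stood at percentiles of 99.39, 99.59, 99.28 and 98.75 among protein-coding genes. Joined over the lists they form 49 distal regions, of which 14 lie upstream and 35 downstream of Myc, 26 are centered in Pvt1 and 17 lie between genes. A peak was present in all 4 lists in 14 of the 49 regions (28.6%), beside 19.0% of the 20542 distal regions of the genome. Of these 14, 6 lie upstream of Myc and 8 downstream.

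Of those 14 regions, 6 stood at or above the 75th percentile in every list, a limit chosen after the values were seen, beside 13.8% of the 3902 distal regions that were present in all lists. The region at -453 kb, between genes, had percentiles of 90.69, 95.77, 95.64 and 88.15. Its neighbor at -449 kb, over an exon of the non-coding genes D030024E09Rik and Gm49498, had 83.24, 86.41, 84.87 and 75.23. The region at -375 kb, in an intron of D030024E09Rik, had 87.04, 95.98, 77.94 and 78.07. These 3 lie upstream and rank lower in Tnm2 with UNC0638 than in CK1750 with UNC0638. Downstream, the region at 135 kb, in an intron of Pvt1, had percentiles of 88.10, 92.64, 94.24 and 93.31. The region at 343 kb, in another intron of Pvt1, had 85.48, 92.77, 92.51 and 93.05. The region at 407 kb, past the end of Pvt1, had 86.78, 90.24, 92.04 and 92.64. In Tnm2 with UNC0638 these 3 downstream regions and that at -453 kb ranked above the Myc promoter (87.26), and in Tnm2 with DMSO that at -453 kb did so (95.64 against 95.32), whereas in CK1750 every distal region of the locus ranked below the promoter in both lists.

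All 6 strong regions ranked higher with UNC0638 in CK1750, by 3.16 to 8.94 points, the reverse of the Myc promoter itself. Among all distal regions as strong in every list, 63.5% of 539 ranked higher in CK1750. In Tnm2 3 of the 6 ranked higher, by at most 0.60 points, beside 20.4% of such regions. Over all 14 constant regions of the locus, 10 ranked higher in CK1750 and 6 in Tnm2, beside 52.6% and 16.0% of the 3902 regions, with median differences of 4.81 and -4.21 points against 0.53 and -12.05 points. These counts describe 1 locus, whose regions share their libraries.

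**Figure D3:**
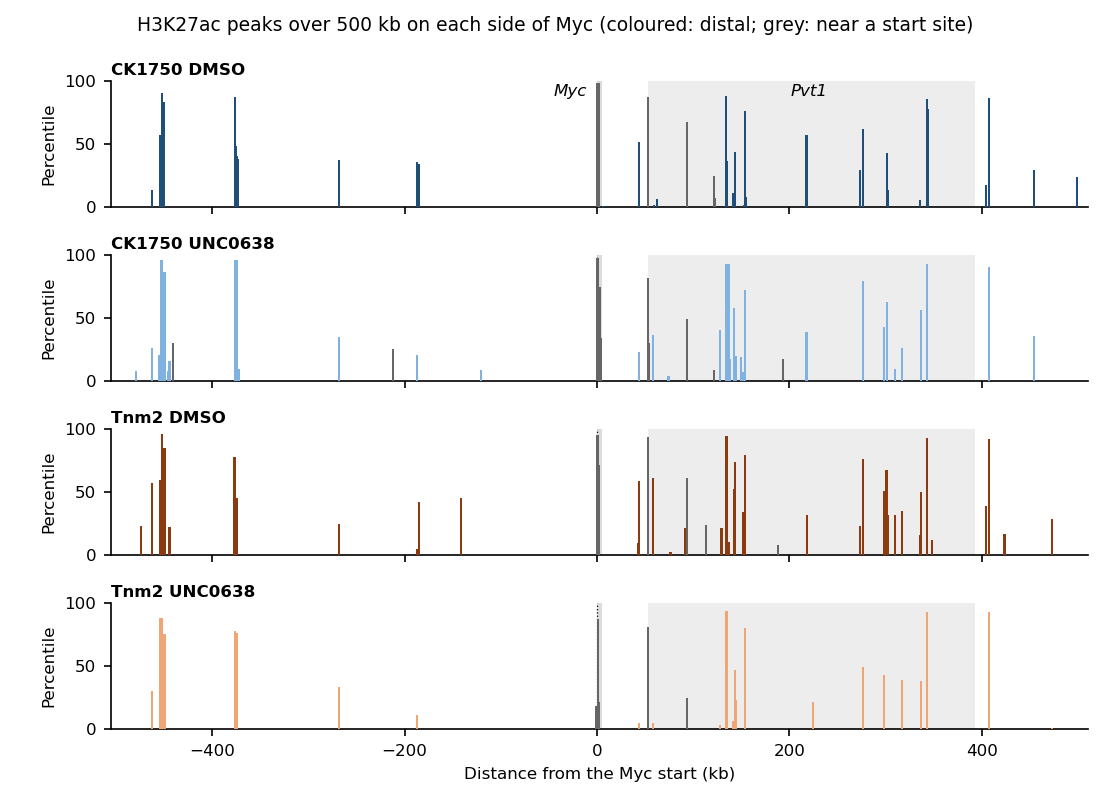
H3K27ac peaks by distance from the Myc start (horizontal axis, kb) in the 4 peak lists (rows), where bar height is the percentile of the peak within its list, coloured bars are distal peaks, dark grey bars lie within 2.5 kb of an annotated start, and light grey shading marks Myc and Pvt1. Narrow peaks are widened to be visible. The same tall bars recur at -453, -449, -375, 135, 343 and 407 kb, and Tnm2 with UNC0638, the shortest list, has the fewest bars.

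Most other strong regions of the locus lay in introns of Pvt1. The region at 154 kb had percentiles of 76.10, 72.00, 79.71 and 80.36. The region at 276 kb had 61.80, 79.32, 76.04 and 48.93, and that at 143 kb had 43.29, 58.03, 73.89 and 46.70. The last 2 were highest in different lists. The region at 301 kb, at 42.70, 62.39 and 67.05, had no peak in Tnm2 with UNC0638, and the region at 58.1 kb had none in CK1750 with DMSO and stood at 36.27, 61.02 and 4.43 in the other lists. Closest to Myc among the constant regions was that at 43.9 kb, between Myc and Pvt1, at 51.72, 23.36, 58.82 and 4.43. It ranked lower with UNC0638 in both lines, at -28.36 points in CK1750 and -54.39 points in Tnm2.

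Sequence is shown for the central 300 bases of 4 of the 8 distal regions that were present in every list and held a searched motif, 2 from the Myc locus and 1 each near Mxd1 and Mxi1, as examples of where the motifs lie. The window was centered on the part that peaks of all 4 lists covered. Motifs are in capitals, on the plus strand of GRCm38.
Myc 154 kb, intron of Pvt1, chr15:62139075-62139374, AP-1 and forkhead: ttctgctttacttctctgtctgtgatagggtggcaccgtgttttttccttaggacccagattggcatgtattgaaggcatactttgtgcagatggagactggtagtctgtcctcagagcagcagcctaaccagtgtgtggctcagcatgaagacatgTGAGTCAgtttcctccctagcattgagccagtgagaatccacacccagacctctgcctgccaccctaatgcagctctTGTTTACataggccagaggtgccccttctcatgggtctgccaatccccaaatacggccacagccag
Myc -375 kb, intron of D030024E09Rik, chr15:61608711-61609010, TEAD on the reverse strand: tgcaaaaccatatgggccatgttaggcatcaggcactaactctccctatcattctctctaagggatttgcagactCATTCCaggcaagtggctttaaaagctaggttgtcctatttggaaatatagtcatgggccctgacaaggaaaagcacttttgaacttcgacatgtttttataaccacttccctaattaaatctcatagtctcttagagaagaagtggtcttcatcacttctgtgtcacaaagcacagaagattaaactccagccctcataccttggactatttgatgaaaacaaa
Mxd1 73.3 kb, between genes, chr6:86595846-86596145, TEAD on the reverse strand and E-box: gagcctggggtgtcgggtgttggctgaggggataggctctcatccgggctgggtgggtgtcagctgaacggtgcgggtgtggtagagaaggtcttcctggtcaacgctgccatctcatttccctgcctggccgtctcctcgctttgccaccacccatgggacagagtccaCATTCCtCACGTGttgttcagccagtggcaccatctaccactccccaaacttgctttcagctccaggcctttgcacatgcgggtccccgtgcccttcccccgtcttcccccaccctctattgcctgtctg
Mxi1 102 kb, between genes, chr19:53412073-53412372, AP-1: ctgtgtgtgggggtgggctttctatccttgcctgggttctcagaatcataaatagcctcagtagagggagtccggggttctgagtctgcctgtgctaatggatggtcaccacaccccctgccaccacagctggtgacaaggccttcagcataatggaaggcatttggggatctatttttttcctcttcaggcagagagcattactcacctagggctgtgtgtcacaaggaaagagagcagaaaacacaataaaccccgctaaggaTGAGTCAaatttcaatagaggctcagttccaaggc
A match is a description of the letters, not of a bound site. The strong regions at -453, -449, 135, 343 and 407 kb of Myc held none of the 4 motifs in these windows. Over the distal peaks in the windows of the members, AP-1 was found in 26.8%, 22.0%, 17.0% and 18.8% of central windows, beside 14.7%, 15.8%, 15.0% and 15.6% of all distal peaks. The forkhead motif was found in 9.76%, 9.76%, 7.55% and 15.6%, beside 4.80%, 5.21%, 5.29% and 5.12%. TEAD was found in 19.5%, 19.5%, 17.0% and 31.2%, beside about 18% in each list (18.0%, 18.4%, 18.1% and 18.3%). The E-box was found in 2.44%, 4.88%, 7.55% and 3.12%, beside 3.93%, 3.83%, 3.83% and 3.79%. These shares rest on 1 to 11 windows each out of 32 to 53, many of the same sites recur in several lists, and no difference was tested. Within 500 kb of Myc the E-box was found in 0, 0, 1 and 1 of the central windows.

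Near Mxd1 and Mxi1 the constant regions were of middle rank. Mxd1 had regions in all 4 lists at 63.3, 73.3, 84.0 and 90.6 kb, downstream of the gene. That at 84.0 kb had percentiles of 70.71, 73.93, 84.84 and 26.98, and that at 73.3 kb, which carries the E-box shown above, had 54.87, 51.56, 57.93 and 78.59. These neighbors thus stood in opposite order in Tnm2 with UNC0638 and in the other lists. Mxi1 had 4 constant distal regions, at 8.15, 102, 103 and 111 kb, of which that at 102 kb was strongest, at 79.60, 81.02, 86.82 and 70.03. A stronger peak lay at 80.5 kb of Mxi1, at percentiles of 98.79, 99.04, 99.63 and 99.75, but it lies within 2.5 kb of the start of the non-coding gene AC133451.1 and was therefore not counted as distal. It was the highest-ranked peak in the Mxi1 window in all lists but the first, in which it tied with the Mxi1 promoter.

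A smaller share of the members' DMSO peaks was missing from the UNC0638 list in CK1750 than in Tnm2, and the same held over the genome. A distal DMSO peak was counted as lost if it had not 1 bp in common with any peak of that line's UNC0638 list. In CK1750, 9 of 41 distal peaks of the members were lost (22.0%, exact Clopper-Pearson 95% interval 10.6 to 37.6%), beside 33.0% of all distal peaks. In Tnm2, 24 of 53 were lost (45.3%, 31.6 to 59.6%), beside 55.0%. UNC0638 peaks with no DMSO peak under them, counted as gained, were 13 of 41 in CK1750 (31.7%, 18.1 to 48.1%), beside 31.1%, and 2 of 32 in Tnm2 (6.25%, 0.77 to 20.8%), beside 14.9%. Each of the 4 intervals includes its background value. Held to 18794 peaks per list, the members' lost shares were 9.52% in CK1750 and 17.2% in Tnm2, beside 21.3% and 28.3% of all distal peaks, and the gained shares were 45.2% and 21.9%, beside 30.4% and 29.7%. The higher loss than gain in Tnm2 was thus not seen at equal lengths. With a reciprocal overlap of 50%, lost and gained shares in CK1750 were both 53.7%, beside 51.5% and 44.4%. Intervals cover counting error only, and neighboring peaks are not independent.

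Lost and gained peaks were mostly weak. With a score of at least 100, 0 of 20 distal peaks of the members were lost in CK1750, beside 9.47% of all distal peaks. With 3 counts taken as the limit for a count of 0, this allows a share of up to 15.0%. That limit is not an exact interval like those above. In Tnm2, 5 of 29 were lost (17.2%), beside 29.5%. Peaks gained at that score were 5 of 26 in CK1750 (19.2%), beside 10.7%, and 0 of 12 in Tnm2, beside 1.57%. By the same limit of 3 counts, 0 of 12 allows up to 25%. The strongest lost peaks were in Tnm2. Among them were the peak at 100 kb of Mxd1, in an intron of 1600020E01Rik, with a score of 302.8, and the peak at 301 kb of Myc in Pvt1, with 249.41. In CK1750 the strongest lost peaks of the member windows scored 81.12 (273 kb of Myc, in Pvt1) and 80.45 (-19.6 kb of Max). The strongest gained peaks in CK1750 scored 141.99 (299 kb of Myc, in Pvt1), 141.77 (61.2 kb of Mxd1) and 129.19 (128 kb of Myc, in Pvt1). All 3 of these regions had peaks in Tnm2, the first 2 with both treatments and the third with UNC0638 only. Both peaks gained in Tnm2 lay in Pvt1 and scored 68.2 and 52.06.

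**Figure D4:**
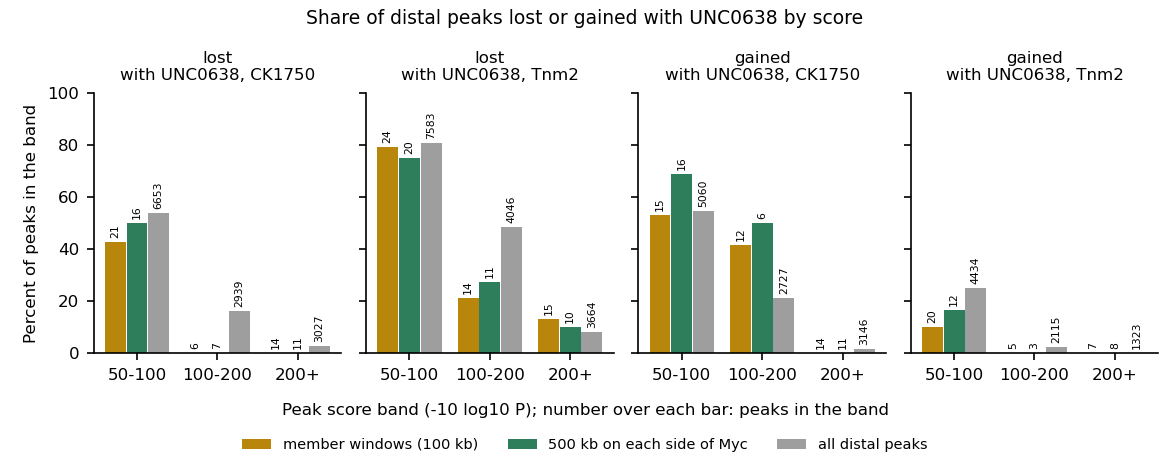
Percent of distal peaks lost or gained with UNC0638 (vertical axis) by score of the peak (horizontal axis), for the windows of the members, the region within 500 kb of Myc and all distal peaks, with the number of peaks over each bar and no error bars. Losses and gains concentrate in the lowest band, and no member peak with a score of at least 100 is lost in CK1750 or gained in Tnm2.

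By gene, Mxd1 lost 0 of 7 distal peaks in CK1750 and 5 of 13 in Tnm2, and gained 4 of 10 and 0 of 8. Mxi1 lost 2 of 9 and 3 of 8, and gained none in either line. Pvt1 lost 6 of 22 and 15 of 28, and gained 8 of 21 and 2 of 16. Myc, within 100 kb, lost 3 of 4 and 3 of 5. Mycl kept its distal peak in both lines. Within 500 kb of Myc, 8 of 34 distal peaks were lost in CK1750 (23.5%, 10.7 to 41.2%), beside 33.0% of all distal peaks. In Tnm2, 19 of 41 were lost (46.3%, 30.7 to 62.6%), beside 55.0%. Gained peaks were 14 of 33 in CK1750 (42.4%, 25.5 to 60.8%), beside 31.1%, and 2 of 23 in Tnm2 (8.70%, 1.07 to 28.0%), beside 14.9%. Each interval includes its background value. The same backgrounds apply to the counts by gene, which rest on few peaks and were not tested.

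The lines shared many of these peaks. With DMSO, 30 of the 41 distal peaks of the members in CK1750 overlapped a Tnm2 peak (73.2%, 57.1 to 85.8%), beside 62.2% of all distal peaks. In the other direction it was 27 of 53 (50.9%, 36.8 to 64.9%), beside 49.7%. With UNC0638 it was 27 of 41 for CK1750 (65.9%, 49.4 to 79.9%), beside 48.9%, and 28 of 32 for Tnm2 (87.5%, 71.0 to 96.5%), beside 70.4%. Both DMSO intervals include their background, and both UNC0638 intervals begin less than 1 point above it. Of the peaks with a score of at least 200, 14 of 14 in CK1750 with DMSO and 14 of 15 in Tnm2 with DMSO were shared, beside 91.6% and 87.8% of all distal peaks at that score. The peak not shared lay at 32.5 kb of Mxd1 (score 315.24 in Tnm2 with DMSO). Near Mxi1, 4 of 9 distal peaks of CK1750 with DMSO were shared. Regions at 15.3, 83.9, 85.0 and 96.1 kb of Mxi1, of which the first is near a start site, had peaks in both CK1750 lists and in neither Tnm2 list. A region at 141 kb, over the non-coding gene Mirt1, stood at 84.10 and 87.51 in CK1750, at 49.47 in Tnm2 with DMSO and had no peak in Tnm2 with UNC0638. Parts of it lie near a start site, and it was not counted as distal.

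Most other genes of the pathway had promoter peaks. Over all protein-coding genes the share with one was 50%, 49.1%, 49.4% and 41.3% in the 4 lists. Of 6 further genes of the Myc and Max network, 4 had a promoter peak in every list (Mxd4, Mga, Mlx and Mlxip), and Mxd3 and Mlxipl had none in any. Of 12 cofactors and regulators of Myc stability, 11, 12, 11 and 9 had one. Sin3a, the corepressor bound by the Mxd proteins, had a promoter peak in CK1750 with UNC0638 only, at percentile 22.26. Ruvbl2, an ATPase of Myc coactivator complexes, and Usp28, a deubiquitinase that stabilizes Myc, lacked one in Tnm2 with UNC0638. Fbxw7, the ubiquitin ligase subunit that marks Myc for degradation, stood at 89.46, 94.27, 93.64 and 89.82. Of 16 known target genes of Myc, 14, 13, 12 and 11 had a promoter peak. Tert and Srm had none in any list, Polr1b had one in CK1750 with DMSO only, and Cad lacked one in Tnm2 with DMSO. Cdk4 and Cdkn1a, a cell cycle kinase and a cell cycle inhibitor, lacked one in Tnm2 with UNC0638. With DMSO they had stood at 61.91 and 65.55 in that line. Of all 10845 protein-coding genes with a promoter peak in Tnm2 with DMSO, 8926 also had one with UNC0638. Among target genes with a peak in both lists, 3 of 13 ranked at least 10 points lower with UNC0638 in CK1750 and 4 of 10 in Tnm2. Among cofactors it was 0 of 11 and 6 of 9, and in the network 2 of 4 and 1 of 4. Over all protein-coding genes with a peak in both lists it was 19.4% in CK1750 and 48.5% in Tnm2. The medians were -4.18 and -6.92 points for target genes, -6.75 and -11.74 for cofactors and -7.56 and -0.46 for the network, beside -2.28 and -9.52 over all genes.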

How the data were processed

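H3K27ac ChIP was done by the authors in CK1750 and Tnm2 cells with DMSO or 1 µM UNC0638. According to the methods, mapping to mm10 used Bowtie2, and MACS 1.4.2 called the peaks. The sources used here do not say whether input DNA served as control. In the deposited files each peak carries a score, -10 log10 of the authors' P value, with a minimum of 50, and the samples of a group share 1 merged list. How much each library adds to a list is unknown, and a weak peak can be missing through a small difference in depth. The 21 H3K9me2 and input samples were not analysed here.

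Starts were the 132666 positions of all transcripts in GENCODE M21, and promoters came from RefSeq GRCm38. Peaks were ranked within lists because scores grow with depth, and overlaps needed 1 bp. No test was run. The members, gene lists and rules were chosen with earlier results of these data known. Named were all 8 members, the distal regions of highest percentile in each class, the 12 highest within 500 kb of Myc, the 3 genes most like Myc, and other pathway genes without a promoter peak in some list. Mxd4, Mga, Mlx, Mlxip and Fbxw7, and several regions near Mxd1, Mxi1 and Mycl, were added after their values were seen. The overlap code was tested on simulated lists. Python 3.11.15, pandas 2.3.3 and SciPy 1.17.1 were used.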

Additional observations from a re-analysis of the deposited data

Results flagged for a closer look

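The number of distal peaks within 100 kb of Mxd1 moved in opposite directions with UNC0638 in the 2 lines, from 7 to 10 in CK1750 and from 13 to 8 in Tnm2. With 1 list per group the difference between the lines was not tested. The Tnm2 lists also differ most in length, 30641 against 18794 peaks, and the part of list length in this count was not tested.

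Ranked among the strongest promoter peaks of protein-coding genes, 3 repressors of the network stood lower with UNC0638 in CK1750 and higher in Tnm2. Mxd1 differed by -5.73 and 6.88 points, Mxi1 by -2.09 and 2.28 points and Mnt by -5.96 and 6.94 points. These differences were not tested, and ranked among all peaks the 3 genes stood lower in both lines. The Mnt value in CK1750 also depends on how peaks with a score of 3100 are ordered.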

How the results depend on the processing

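No paired analysis was possible because each group is 1 merged list, and for the same reason no library could be left out. The number of members with a promoter peak stayed at 6 in every list under each alternative, except in Tnm2 with UNC0638 for peaks scoring at least 100, where it was 4 (Max and Mxd1 scored 91.61 and 95.68). The 2 counts of distal peaks (members, then within 500 kb of Myc; lists in the order used above) were, for peaks scoring at least 100, 20, 26, 29 and 12, then 18, 17, 21 and 11. With equal numbers of peaks (18794) in every list they were 21, 31, 29 and 32 for the members and 21, 19, 21 and 23 near Myc. The members' count was then higher with UNC0638 in both lines, as was the count of all distal peaks. Near Myc the count was then lower with UNC0638 in CK1750 and higher in Tnm2, the latter the reverse of the full lists. The fewer peaks counted follow from these settings. With neighbors within 1 kb merged the members had 34, 35, 44 and 27, with a window of 50 kb 33, 34, 40 and 25 and with 200 kb 56, 56, 75 and 44.

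Lost shares in CK1750 became 9.52% at equal lengths, 53.7% with a reciprocal overlap of 50% and 0% for counted peaks scoring at least 100. In Tnm2 they became 62.1% at a score of at least 100 in both lists, 17.2% at equal lengths and 17.2% for counted peaks scoring at least 100. Gained shares became 53.7% in CK1750 with reciprocal overlap and 45.2% at equal lengths, and in Tnm2 21.9% at equal lengths and 0% for counted peaks scoring at least 100. At equal lengths the background was 21.3% and 28.3% lost and 30.4% and 29.7% gained, and with reciprocal overlap 51.5% lost and 44.4% gained in CK1750. Shares in common between lines, each with its background, were for CK1750 with DMSO 90% (70.5%) at a score of at least 100, 90.5% (65.5%) at equal lengths and 95% (82.6%) for counted peaks at that score. For Tnm2 with DMSO they were 67.9% (59.1%) with any peak within 1 kb and 79.3% (70.5%) for counted peaks at that score, for CK1750 with UNC0638 46.2% (45.1%) at a score of at least 100, and for Tnm2 with UNC0638 100% (79.2%) and 100% (89.6%) at that score in both lists or for counted peaks. The cause was not tested.

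The number of members at least 10 points lower with UNC0638 in CK1750 was 0 when ranked among promoter peaks of the main chromosomes or of protein-coding genes, since Mxd1 then differed by -9.75 and -5.73 points. The alternatives with counted peaks scoring at least 100, with the basic annotation and with protein-coding promoters as the ranking were added after the data were seen. Depth is unknown, so absence of a weak peak says only that it was not called.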
